A study of Homo sapiens with 14 samples.

Results

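MV4;11 cells depleted of EZH2 by a hairpin (shEZH2) were compared with MV4;11 cells labelled EV, in 4 of the 14 RNA-seq libraries of the series. MV4;11 is an established myelomonocytic leukaemia line with the KMT2A-AFF1 fusion, and its cells were grown in RPMI1640 with serum. All 4 libraries were chosen by their labels, 2 for shEZH2 and 2 for EV. Both groups received doxycycline at 1 µg/ml for 4 days, so the drug is common to the hairpin and the control. The sources used here do not give the hairpin's sequence, its vector or the number of clones and cultures. A single hairpin was used in these libraries, so an effect of EZH2 loss and an effect of that hairpin on other transcripts cannot be told apart. The labels do not say whether replicate libraries stem from separate cultures, and the p-values below therefore rest on a spread between libraries that may be technical. Beside these 4, the text uses 2 libraries of a second MV4;11 control (sgEV) and 4 libraries of EOL-1, an eosinophilic leukaemia line (sgEZH2 and its own sgEV). The sgEV and EOL-1 libraries also come from cells given doxycycline at 1 µg/ml for 4 days.

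EZH2 is the catalytic subunit of Polycomb repressive complex PRC2, which methylates lysine 27 of histone H3 and holds developmental and lineage genes in a repressed state. EED and SUZ12 are the other core subunits, while JARID2, MTF2, PHF19 and EPOP are accessory subunits that guide or tune the complex. In acute leukaemia with a KMT2A fusion, PRC2 is known as a complex the cells depend on, and EZH2 is also known for roles in gene activation that do not need the complex.

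The EV libraries held 15771077 and 15034563 gene counts and the shEZH2 libraries 16274554 and 16097841. Spike-in RNAs took 1.20 to 1.30% of counts. The mitochondrial share of gene counts was 2.18 and 2.22% in EV and 2.79 and 2.80% with shEZH2, and its part in the results below was not tested. Of 18 myeloid markers 17 had a row, with a summed level of 3707 to 3907 CPM in EV and 4009 to 4112 CPM with shEZH2 (CPM, a gene's counts relative to the size of its library after TMM scaling). Of these 17 myeloid markers, 6 were called higher and 7 lower, so the sum does not give a shared direction. HOXA and MEIS1 markers, a list that also holds PBX3 and MEF2C, had a row for 5 of 8. They summed to 634 to 654 CPM in EV and 491 to 504 CPM with shEZH2, with 1 called higher and 1 lower. MEF2C by itself fell from a mean of 346 CPM to 192 CPM, so the lower sum is not a fall of the list as a whole. Of the markers of other lineages, 2 of 13 for T and NK cells, 3 of 6 for B cells, 3 of 11 for erythroid cells and megakaryocytes, 2 of 5 for epithelial cells, 2 of 4 for endothelial cells and 0 of 6 for fibroblasts had a row. Their sums were 49.2 and 53.2 CPM in EV against 36.4 and 39.5 CPM for T and NK cells, 2.62 and 3.64 against 3.10 and 3.59 CPM for B cells, and 16.3 and 17.3 against 9.38 and 11.2 CPM for erythroid cells and megakaryocytes. They were 17.4 and 18.0 against 16.1 and 15.8 CPM for epithelial cells and 124 and 114 against 77.4 and 78.8 CPM for endothelial cells, almost all of it PECAM1, which myeloid cells also make. In bulk RNA, fewer cells of a type and less RNA per cell cannot be told apart.

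Changes were widespread and mostly small. Of 13591 genes tested, edgeR's quasi-likelihood test with Benjamini-Hochberg adjustment called 1824 higher (13.4%) and 1934 lower (14.2%) with shEZH2, 27.7% in all. The median log2 fold change was 0.00 over all genes tested, 0.36 among genes called higher and -0.39 among those called lower. Changes under 1.25-fold made up 41.6% of the calls (1565 genes), those from 1.25- to 1.5-fold 28.3%, those from 1.5- to 2-fold 15.9%, those from 2- to 4-fold 9.95% and those of at least 4-fold 4.26% (67 higher and 93 lower). A stricter test, which asks for a change beyond 1.5-fold (edgeR's glmTreat), called 164 genes higher (1.21%) and 210 lower (1.55%), 2.75% in all. The libraries of the 2 groups did not overlap for 8670 genes (63.8%), so separation of the libraries alone says little about a gene here. Without shEZH2 library 1, 1186 genes were called higher and 1290 lower, and without shEZH2 library 2, 1233 and 1358. With libraries scaled to the spike-in RNAs, 36.4% of the calls were higher (805 against 1407 lower), compared with 48.5% with TMM. The spike-in totals were 11978 and 13099 CPM in EV and 12793 and 13073 CPM with shEZH2. Both shEZH2 totals thus lay within the range of EV, and results with spike-in scaling, here and below, do not show a change in total RNA.

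The share of genes called rose with level. It was 12% of the 1061 genes under 1 CPM, 15.9% of 2506 genes at 1 to 5 CPM, 26.9% of 2840 at 5 to 20 CPM, 31.8% of 5035 at 20 to 100 CPM and 40.4% of 2149 genes above 100 CPM. Calls beyond 1.5-fold went the other way, from 4.15% under 1 CPM to 1.35% above 100 CPM. The median absolute log2 fold change of a called gene was 2.37 under 1 CPM and 0.21 above 100 CPM. The median SE fell from 0.49 to 0.045 over the same bands, so that the changes called in scarce transcripts were mostly large ones.

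**Figure D1:**
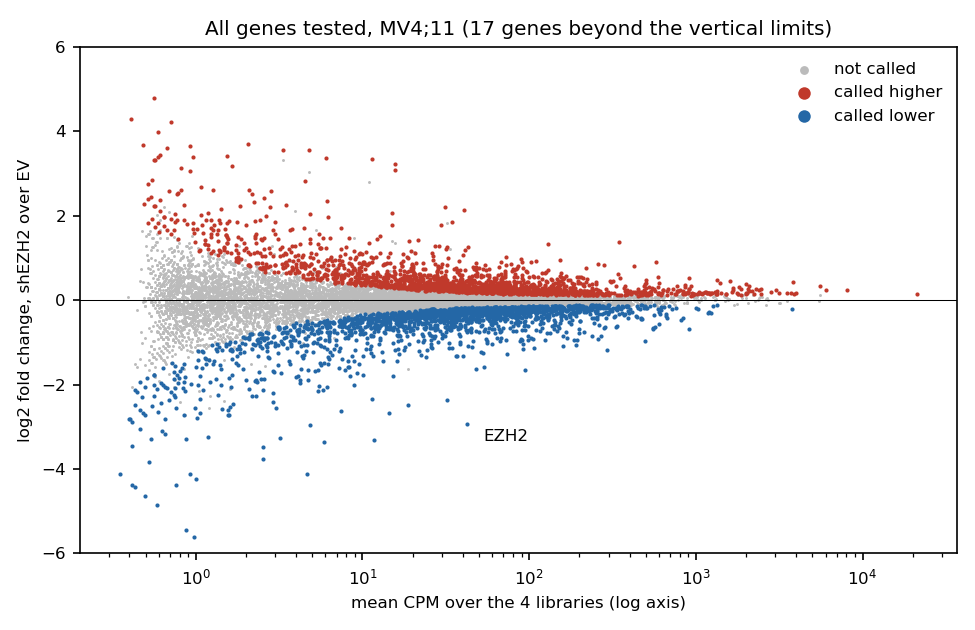
Log2 fold change of shEZH2 over EV (vertical axis) against the mean CPM of the 4 libraries (log horizontal axis) for each gene tested, with genes called higher in red, lower in blue and not called in grey. Called changes narrow from left to right: the median absolute log2 fold change of called genes is 2.37 under 1 CPM and 0.21 above 100 CPM. 17 genes lie beyond the vertical limits.

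EZH2 itself stood at 73.3 and 75.8 CPM in EV and at 9.75 and 9.70 CPM with shEZH2 (log2 fold change -2.94 ± 0.07 SE, n = 2 libraries per group here and throughout, adjusted p = 2.8e-09, edgeR). The core partners did not pass the test: SUZ12 had -0.08 (called without EV library 2, at -0.12 with adjusted p = 0.0314) and EED -0.06, and the paralogue EZH1, which can replace EZH2 in the complex, had 0.24 ± 0.13 (adjusted p = 0.192, edgeR). Of 13 other PRC2 genes tested, 2 were higher and 1 lower (23.1% called, against 27.7% of all genes). JARID2, an accessory subunit that brings the complex to chromatin, measured 56.0 and 47.5 CPM in EV and 98.2 and 87.5 CPM with shEZH2 (0.84 ± 0.08, adjusted p = 6.5e-05, edgeR), so both hairpin libraries lay above both controls. C17orf96, the older symbol of the elongin-binding subunit EPOP, measured 15.4 and 15.7 CPM in EV and 23.5 and 26.4 CPM with shEZH2 (0.69 ± 0.09). PHF19, which reads methylated lysine 36 of histone H3, was lower (-0.25 ± 0.05, adjusted p = 0.0037, edgeR), a call lost without shEZH2 library 2 (adjusted p = 0.0532) and with DESeq2 (adjusted p = 0.0504).

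A few other chromatin regulators changed by larger amounts. KDM6A (UTX), a demethylase that removes the mark EZH2 places, fell from 24.7 and 22.4 CPM to 8.57 and 8.75 CPM (-1.44 ± 0.10, adjusted p = 2.0e-06, edgeR). SMARCA4 (BRG1), an ATPase of the SWI/SNF remodelling complexes, fell from 412 and 403 CPM to 183 and 174 CPM (-1.19 ± 0.04, adjusted p = 2.0e-08). The 2 hairpin libraries were below both controls for each gene, with a gap larger than the distance between replicates. The demethylases KDM1A (0.40) and KDM5B (0.43), which act on lysine 4 of histone H3, rose. Of 42 histone methylation enzymes tested, 6 were higher and 4 lower (23.8% called, median 0.05). Those counts depended on single libraries, with 16 and 4 called without EV library 1, 3 and 8 without EV library 2, 3 and 2 without shEZH2 library 1 and 5 and 2 without shEZH2 library 2, and the balance turned with spike-in scaling (2 and 3). Of 26 SWI/SNF genes, a list added after values had been seen, 4 were higher and 3 lower (26.9% called, near the 27.7% of all genes). Their balance turned with spike-in scaling (0 higher, 2 lower), with DESeq2 (1 and 2), without the robust step (2 and 3) and without shEZH2 library 1 (1 and 3) or shEZH2 library 2 (1 and 2).

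Among the 20 largest rises, ranked by fold among genes whose higher group averaged 50 or more normalised counts, were signalling and membrane genes at low control levels. LTK, a receptor tyrosine kinase, measured 0.936 and 1.32 CPM in EV and 8.13 and 7.81 CPM with shEZH2 (2.82 ± 0.21, adjusted p = 3.6e-06, edgeR). DOCK1, an activator of the GTPase RAC, went from 0.624 and 0.529 CPM to 3.17 and 4.03 CPM (2.62 ± 0.32). PRLR, the prolactin receptor, went from 0.749 and 0.727 CPM to 3.41 and 4.03 CPM (2.32 ± 0.29). In these 3 genes the hairpin libraries were several times above either control. SDK2, an adhesion molecule of the immunoglobulin family, rose from 11.9 and 10.2 CPM to 54.8 and 47.5 CPM (2.21 ± 0.10), and VAT1L from 14.7 and 15.3 CPM to 66.7 and 65.6 CPM (2.14 ± 0.07, adjusted p = 2.0e-08, edgeR). HSH2D, an adaptor protein with an SH2 domain, rose from 5.55 and 5.95 CPM to 24.6 and 23.7 CPM (2.07 ± 0.11). The fatty acid genes SLC27A2, a transporter and acyl-CoA synthetase (2.35), and ECI2, an enoyl-CoA isomerase of fatty acid oxidation (2.04), were in the same 20, as were the adhesion molecule CADM1 (1.98), the arrestin-like ARRDC3 (2.20) and YPEL2 (2.43).

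The 20 largest falls held several secreted and surface proteins. ANXA1, a phospholipid-binding protein that limits inflammation, fell from 30.3 and 33.0 CPM to 5.90 and 5.42 CPM (-2.48 ± 0.10, adjusted p = 6.5e-08, edgeR). ZNF185, which despite its symbol is a LIM domain protein of the actin cytoskeleton, fell from 54.9 and 52.6 CPM to 9.75 and 11.1 CPM (-2.36 ± 0.08). Replicates of each gene lay close together beside the distance between groups. RAP1GAP, which switches off the GTPase RAP1, fell from 11.9 and 13.6 CPM to 1.86 and 2.27 CPM (-2.62 ± 0.17), and NOG (noggin), a secreted inhibitor of BMP signals, fell from 4.49 and 5.88 CPM to 0.869 and 0.882 CPM (-2.55 ± 0.26). The interferon-induced GTPase GBP2 (-2.42 ± 0.34), the surface receptor CD101 (-2.28 ± 0.31) and the caveolae protein CAV1 (-2.15 ± 0.21) were also among them.

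A few transcripts were close to absent in 1 of the groups (at most 3 counts over both libraries) and had at least 50 counts in the other. PON2, a lactonase of intracellular membranes, had no count in EV and 191 with shEZH2, at least 62.0-fold higher if EV is set to 3 counts over its libraries, the floor used here. RSC1A1, which overlaps another gene, had 0 counts in EV and 100 with shEZH2, at least 32.5-fold higher. IKBKGP1, a pseudogene whose reads can be confused with those of IKBKG, had 80 counts in EV and 0 with shEZH2, at least 27.4-fold lower. BANK1, a B cell scaffold protein, had 60 against 3 counts, a ratio of 20.5 with a 95% counting interval of 6.70 to 102. TBXA2R, the thromboxane receptor, had 60 against 1 counts, and the pantetheinase VNN1 had 53 against 1. The second MV4;11 control, sgEV, differed from EV for some of these. IKBKGP1 and VNN1 were at 0 CPM in both sgEV libraries, as with shEZH2, and PON2 was present there at 1.57 and 1.35 CPM, between EV and shEZH2. RSC1A1 stood at 0 and 0.974 CPM in sgEV, BANK1 at 1.42 and 1.80 CPM and TBXA2R at 2.77 and 1.65 CPM. These intervals and floors cover counting error only.

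**Figure D2:**
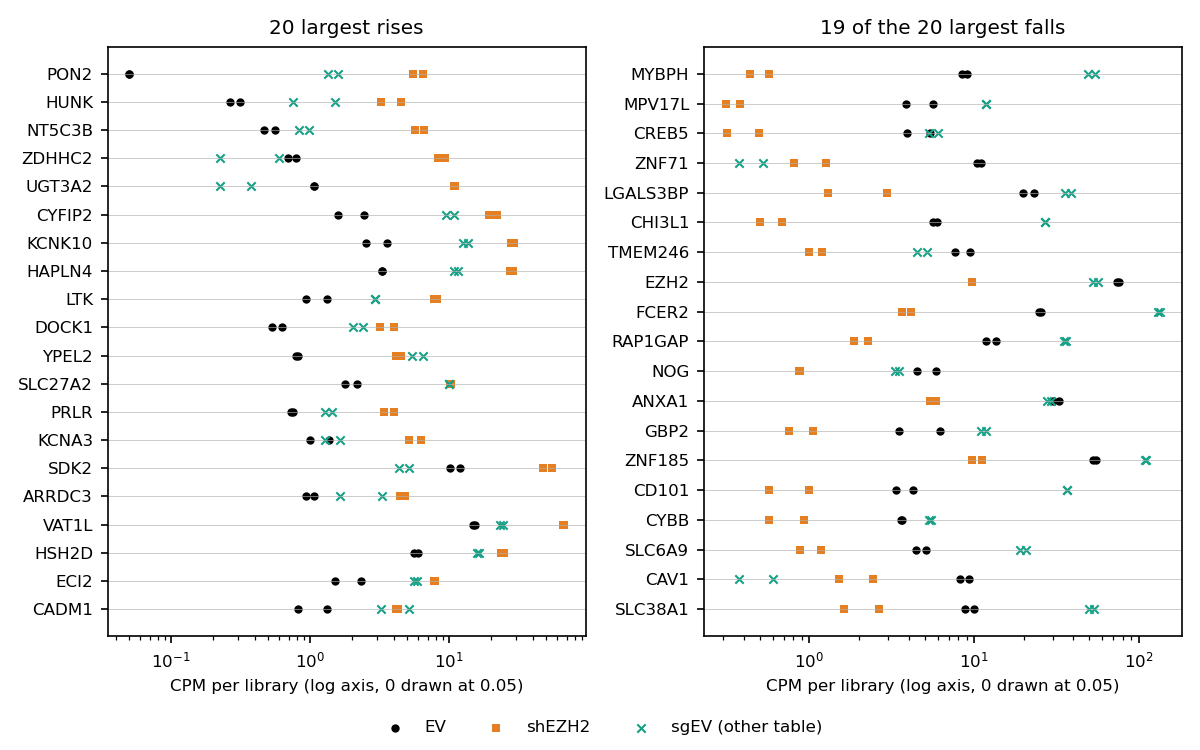
CPM per library (log axis, a level of 0 drawn at 0.05) of the 20 largest rises (left) and 19 of the 20 largest falls (right), with EV in black circles, shEZH2 in orange squares and the second MV4;11 control, sgEV, in green crosses. The 2 libraries of a group are apart by more than 2-fold for LGALS3BP with shEZH2 (1.30 and 2.96 CPM) and, in sgEV, for ZDHHC2 (0.600 and 0.225 CPM) and HUNK, and sgEV lies nearer EV than shEZH2 for 9 of the 20 rises and, with the fall not drawn, 18 of the 20 falls. A level past EV on the side away from shEZH2 counts as nearer EV.

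Genes of fatty acid synthesis, and fewer of those that handle sterols, were lower with shEZH2. Of 21 genes of fatty acid synthesis tested, 15 were lower and 0 higher (71.4% called, median log2 fold change -0.31, against 27.7% and 0.00 over all genes). SREBF1, the transcription factor that drives the pathway, fell from 164 and 158 CPM to 95.0 and 91.7 CPM (-0.79 ± 0.05, adjusted p = 6.9e-07, edgeR). SCD, the desaturase that makes oleate, fell from 711 and 657 CPM to 434 and 421 CPM (-0.68 ± 0.05), and FADS2, which desaturates polyunsaturated fatty acids, from 259 and 251 CPM to 133 and 132 CPM (-0.94 ± 0.04). Both hairpin libraries stood below both controls for all 3 genes. FADS1 (-0.58), the elongase ELOVL1 (-0.75) and the acyl-CoA synthetase ACSL1 (-0.54) were lower as well. FASN, the fatty acid synthase itself, named for its role after its values were seen, fell by less, from 838 and 776 CPM to 708 and 700 CPM (-0.20 ± 0.04, adjusted p = 0.0062, edgeR), a call lost without shEZH2 library 1 (adjusted p = 0.0629) or shEZH2 library 2 (0.0938).

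Of 24 genes of sterol uptake, storage and efflux, 11 were lower and 0 higher (45.8% called, median -0.15), and 5 were lower with DESeq2. The fatty acid transporter SLC27A2, in neither list, was among the 20 largest rises (2.35). The sterol sensors INSIG1 (-0.28) and INSIG2 (-0.75), the sterol carrier OSBP (-0.39) and the phospholipid-remodelling enzyme LPCAT3 (-0.33) were among the lower ones. Sphingolipid and glycolipid genes did not share this direction, with 5 higher and 5 lower of 27 tested, although the lower ones numbered 3 without EV library 1, 2 without shEZH2 library 1 and 1 without shEZH2 library 2. UGCG, which makes glucosylceramide, was higher (0.74).

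Lysosomal genes split by member. Of 46 hydrolases and membrane proteins of lysosomes, 12 were higher and 17 lower (63.0% called, median -0.09). The proteases CTSZ (100 and 108 CPM in EV, 44.9 and 41.2 CPM with shEZH2, -1.27 ± 0.06) and CTSB (125 and 133 CPM, then 67.2 and 66.9 CPM, -0.94 ± 0.05) were lower, as was the membrane protein LAMP2 (340 and 335 CPM, then 180 and 177 CPM, -0.92 ± 0.04). The sulfatase ARSB (0.59) and the glucosidase GAA (0.55) were higher. Without shEZH2 library 1 the lower genes numbered 10 and without shEZH2 library 2 they numbered 11. Of 17 subunits of the V-ATPase, the proton pump that acidifies these organelles, 6 were lower and 0 higher (35.3% called, median -0.09), led by TCIRG1 (-0.65). In iron and haem metabolism 5 of 29 genes were higher and 5 lower (34.5% called), with 3 higher without either shEZH2 library. The haem pathway enzymes ALAD (-0.64) and UROD (-0.49) and the biliverdin reductase BLVRB (-0.84) were lower, and NCOA4, the receptor that delivers ferritin to autophagy, was higher (0.62), from 272 and 270 CPM to 419 and 414 CPM. SLC7A11, the cystine transporter that feeds glutathione synthesis, fell from 11.5 and 10.3 CPM to 3.73 and 3.46 CPM (-1.60 ± 0.15).

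Adhesion molecules and the actin cytoskeleton were lower in many members. Of 32 leukocyte adhesion genes, 17 were lower and 3 higher (62.5% called, median -0.25), with 11 lower without shEZH2 library 2 and 6 higher without EV library 1. ITGB1, the beta chain shared by many integrins, fell from 249 and 237 CPM to 129 and 123 CPM (-0.95 ± 0.05, adjusted p = 1.7e-07, edgeR). ITGB2 (172 and 176 CPM, then 106 and 109 CPM, -0.69 ± 0.04) and ITGAL (985 and 923 CPM, then 714 and 712 CPM, -0.42 ± 0.04), the 2 chains of the leukocyte integrin LFA-1, were lower together. The tetraspanin CD82 (-1.23), the sialomucin SPN (-0.45) and PECAM1 (-0.61) also fell, while ALCAM, an adhesion molecule of the immunoglobulin family, rose from 29.4 and 29.0 CPM to 48.3 and 47.6 CPM (0.72 ± 0.06).

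Among 65 actin and myosin genes, a list added after values had been seen, 29 were lower and 9 higher (58.5% called). The median (-0.08) and the mean (0.02) differed in sign. Beyond 1.5-fold the lean was the other way, with 4 higher and 1 lower (1.21% and 1.55% over all genes). Without shEZH2 library 1, 17 were lower, and without EV library 2, 14 were higher. MYH9, the heavy chain of non-muscle myosin, fell from 1153 and 1069 CPM to 702 and 692 CPM (-0.67 ± 0.04), and GSN (gelsolin), which severs actin filaments, from 342 and 348 CPM to 216 and 223 CPM (-0.65 ± 0.04). LMNA, which encodes the nuclear lamins A and C and no actin or myosin protein, fell from 214 and 220 CPM to 99.3 and 106 CPM (-1.08 ± 0.05). In all 3 the groups were well apart. MARCKSL1 (0.93) and WASF1 (1.11), which regulate actin assembly at the membrane, rose. Of 15 calcium-binding S100 proteins and annexins, 7 were lower and 3 higher (66.7% called, median -0.29), with ANXA5 (-1.14), S100A10 (-1.0), S100A4 (-0.74) and S100A6 (-0.66) lower and ANXA2 higher (0.35).

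**Figure D3:**
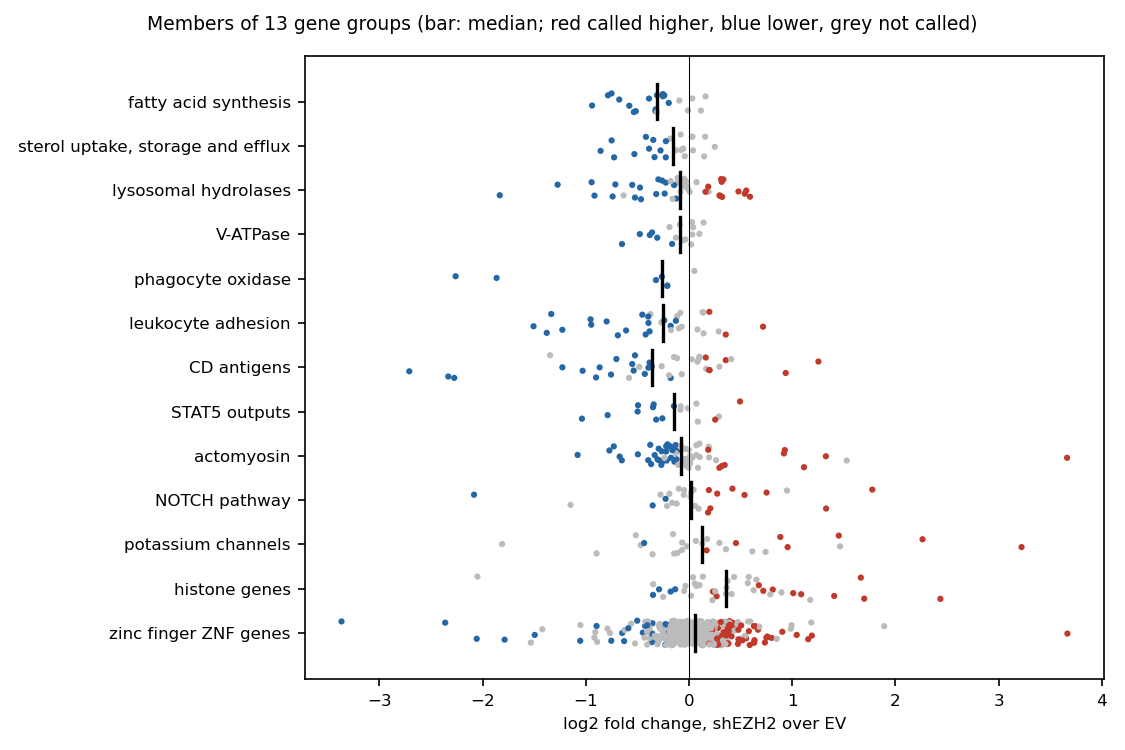
Log2 fold change of shEZH2 over EV for each tested member of 13 gene groups, one point per gene, coloured red where called higher, blue where called lower and grey where not called, with the group's median as a black bar. The medians run from -0.36 for the CD antigens to 0.36 for the histone genes. With only genes of a mean of at least 50 counts, the medians of these 2 groups were -0.18 and 0.18. With limma on the log2 values of the authors they were -0.141 and 0.125.

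Surface and innate immune genes were lower more often than higher. Of 39 genes whose symbols begin with CD and a number, 17 were lower and 6 higher (59.0% called, median -0.36), with 3 higher without shEZH2 library 1 and 2 without shEZH2 library 2. The sialomucin CD164 (218 and 221 CPM, then 117 and 118 CPM, -0.90 ± 0.04), CD180 (-0.70) and CD4 (-0.43) were lower, and CD70, a ligand of the TNF family, was higher (24.5 and 26.6 CPM, then 62.8 and 58.8 CPM, 1.25 ± 0.07). Of 36 immune surface receptors, 12 were lower and 8 higher (55.6% called, median -0.25), with 3 higher without either shEZH2 library. FCER1G, the signalling chain of several Fc receptors, fell from 16.2 and 16.7 CPM to 6.21 and 6.93 CPM (-1.33 ± 0.12), and FCGRT, the receptor that recycles IgG, from 15.3 and 13.3 CPM to 3.97 and 3.15 CPM (-2.0 ± 0.15). Of 33 pattern recognition genes 12 were lower and 5 higher (51.5% called, median -0.01), with TLR1 (-1.45) and UNC93B1 (-0.56), which carries Toll-like receptors to endosomes, lower and TLR2 higher (0.56).

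The 7 subunits of the phagocyte oxidase, the enzyme that makes superoxide, held 6 lower and 0 higher (85.7% called, median -0.26), and 3 were lower without shEZH2 library 1. CYBB, its catalytic subunit, was at 3.62 and 3.64 CPM in EV and 0.931 and 0.567 CPM with shEZH2 (-2.26 ± 0.30, adjusted p = 2.4e-04, edgeR). NCF1, a cytosolic subunit with near-identical pseudogenes that make its counts uncertain, was at 3.49 and 4.30 CPM and then 1.43 and 0.693 CPM (-1.87 ± 0.32). The GTPase RAC2 changed little (-0.21 ± 0.04). Of 16 chemokines and chemoattractant receptors, 7 were lower and 3 higher (62.5% called, median -0.41). The chemokine CCL5 fell from 15.5 and 15.7 CPM to 4.28 and 4.85 CPM (-1.77 ± 0.13) and the receptor CXCR3 from 14.2 and 14.3 CPM to 4.16 and 4.41 CPM (-1.73 ± 0.13). CXCR4, the receptor that retains cells in bone marrow, rose from 54.7 and 56.2 CPM to 98.7 and 102 CPM (0.85 ± 0.05), and CCR2 also rose (0.61).

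CYBB, NCF1 and LGALS3BP, together with the interferon-induced genes IFI6 (-1.32 ± 0.19) and DDX60L (-1.14 ± 0.14), all lower with shEZH2, have the letters GAAANNGAAA, read on either strand, within the 250 bases before their start in the RefSeq promoter table (GRCh38.p14). These are the core letters of the interferon-stimulated response element, bound by STAT and IRF factors. IFI44 (-4.63), CD209 (-2.33) and GYPC (-1.04), also lower, have the same letters in that window. The letters occurred in the same window of 839 of 27305 genes in that table (3.07%). The search covered only those of the 374 genes changed beyond 1.5-fold, in either direction, that had a promoter in that table, apart from a chromosome left out. The genes named here are all that matched, and their number was not compared with the number to be expected. All the genes named here were picked for the match after their values were seen, so a match is a description and not a site. Whether the letters are more frequent among lower genes than in that table was not tested. Promoters were found for 70.1% of the genes tested, so no share over the called genes is given. The stretches below are shown so that the match can be seen in its surroundings, 5′ to 3′ on the gene's strand with the matched letters in capitals (TTTC at the start marks a match on the other strand). LGALS3BP is at chr17:78979952-78980001 on the minus strand, CYBB at chrX:37779814-37779863 and NCF1 at chr7:74773875-74773924 on the plus strand, and IFI6 at chr1:27672319-27672368 and DDX60L at chr4:168480543-168480592 on the minus strand.
LGALS3BP: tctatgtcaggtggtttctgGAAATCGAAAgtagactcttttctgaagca
CYBB: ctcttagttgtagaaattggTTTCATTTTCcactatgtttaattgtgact
NCF1: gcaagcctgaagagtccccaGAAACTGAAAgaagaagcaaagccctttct
IFI6: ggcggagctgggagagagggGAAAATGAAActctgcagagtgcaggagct
DDX60L: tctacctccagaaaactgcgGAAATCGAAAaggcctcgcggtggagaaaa

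Receptors and outputs of growth signals went in both directions. Of 45 cytokine and growth factor receptors, 13 were higher and 13 lower (57.8% called, median -0.04), with 6 lower without shEZH2 library 1 and 7 without shEZH2 library 2. IL2RG, the common gamma chain, fell from 11.5 and 14.5 CPM to 3.60 and 3.84 CPM (-1.80 ± 0.16). FLT3, whose activating mutation MV4;11 is known to carry, fell from 549 and 531 CPM to 404 and 399 CPM (-0.43 ± 0.04, adjusted p = 1.3e-05, edgeR). Of the related receptors AXL and TYRO3, AXL fell from 6.18 and 6.81 CPM to 2.24 and 1.95 CPM (-1.63 ± 0.19) and TYRO3 rose from 6.37 and 5.68 CPM to 12.5 and 12 CPM (1.02 ± 0.13). The interleukin-3 receptor chain IL3RA (0.61) and the death receptor TNFRSF10B (0.56) were higher. Of 17 genes of STAT5 and its known outputs, 9 were lower and 2 higher (64.7% called, median -0.15). STAT5A fell from 51.7 and 51.8 CPM to 25.7 and 24.7 CPM (-1.04 ± 0.06), and the kinase PIM1 (-0.49) and the differentiation inhibitor ID2 (-0.50) were lower. In the NF-kB list 3 of 26 genes were higher and 4 lower (26.9% called, near the share of all genes), including the cytokine TNF (15.5 and 16.4 CPM, then 6.89 and 6.42 CPM, -1.26 ± 0.11) and the cofactor BCL3 (-1.40). Without shEZH2 library 2, 1 was higher and 2 lower.

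Of 53 myeloid transcription factors, 9 were higher and 10 lower (35.8% called, median -0.04 and mean 0.01). The balance turned without EV library 1 (13 higher, 8 lower) and with DESeq2 (5 and 4), and 6 were lower without shEZH2 library 2. RXRA, a partner of nuclear receptors, fell from 251 and 237 CPM to 152 and 154 CPM (-0.68 ± 0.04). IRF8, which drives the monocyte and dendritic cell fate, rose from 482 and 480 CPM to 705 and 700 CPM (0.55 ± 0.04), CEBPD, a factor of myeloid maturation, from 64.9 and 72.3 CPM to 115 and 117 CPM (0.76 ± 0.06), and TCF4, a factor of plasmacytoid dendritic cells, from 12.9 and 11.2 CPM to 28.6 and 25.8 CPM (1.17 ± 0.10). The 2 libraries of each group were within a narrow range for these 4 genes. IKZF2 (Helios) was lower (-1.68 ± 0.28).

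NOTCH pathway genes were higher in 9 of 27 cases and lower in 3 (44.4% called). The lower ones numbered 0 without EV library 1 and 1 without either shEZH2 library, and the median of 0.02 became -0.03 with spike-in scaling. The higher ones included the receptor NOTCH2 (98.9 and 86.1 CPM, then 134 and 135 CPM, 0.54 ± 0.06), the ubiquitin ligase DTX4 (7.18 and 6.35 CPM, then 22.2 and 24.2 CPM, 1.78 ± 0.11), the target gene HEYL (1.33) and NCSTN, a subunit of the protease that releases the receptor's intracellular part (0.42). In the WNT pathway 8 of 34 genes were higher and 3 lower (32.4% called, median 0.11), with 5 higher without shEZH2 library 1, 1 lower without EV library 2, and 3 higher and 2 lower with spike-in scaling (median 0.06). The receptor FZD3 (1.48 ± 0.16) and the coreceptor LRP5 (0.40) rose. In the TGF-beta and BMP pathway 9 of 32 genes were higher and 7 lower (50% called, median 0.08 and mean -0.02), a balance that turned with spike-in scaling (4 higher, 6 lower) and with DESeq2 (3 and 6). ENG (endoglin), a coreceptor, fell from 145 and 148 CPM to 65.4 and 69.0 CPM (-1.13 ± 0.05), INHBA, which encodes a chain of activin, from 90.5 and 86.2 CPM to 46.3 and 44.5 CPM (-0.96 ± 0.06), and TGFB1 was lower by less (-0.34).

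Solute carriers, which move small molecules across membranes, were called more often than all genes (27.7%), and potassium channels about as often. Of 195 solute carriers, 32 were higher and 47 lower (40.5% called, median -0.03), with 31 lower without shEZH2 library 2 and 13 higher and 36 lower with spike-in scaling. The amino acid transporters SLC38A1 (9.92 and 8.86 CPM, then 1.61 and 2.64 CPM, -2.14 ± 0.21), SLC6A9, which carries glycine (-2.20 ± 0.25), and SLC1A5, which carries glutamine (534 and 543 CPM, then 394 and 403 CPM, -0.44 ± 0.04), fell, whereas the glutamate transporter SLC1A3 rose from 17.9 and 17 CPM to 36.9 and 34.8 CPM (1.04 ± 0.08). Of 27 potassium channel genes 7 were higher and 1 lower (29.6% called, median 0.13). KCNA3, a voltage-gated channel, rose from 1.37 and 0.992 CPM to 5.15 and 6.30 CPM (2.26 ± 0.24), KCNQ3 was also higher (1.45), and the calcium-activated channel KCNN4 was lower (-0.44). Both hairpin libraries were above both controls for KCNA3.

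Of 383 ZNF genes, most of which encode DNA-binding zinc finger proteins, 57 were higher and 24 lower (21.1% called, beside 27.7% of all genes, median 0.06). Without shEZH2 library 1, 34 were higher. Over all genes 13.4% were higher and 14.2% lower, so the ZNF genes differed mainly in having fewer falls, with a share of rises near that of all genes. The excess of higher over lower calls was smaller with spike-in scaling (23 higher, 18 lower, median 0.01) and rested on fewer calls with DESeq2 (15 and 9). ZNF664 (61.3 and 58.9 CPM, then 102 and 98.5 CPM, 0.73 ± 0.05), ZNF512 (0.59) and ZNF107 (0.75) were higher. Histone genes, whose near-identical copies make single values uncertain, were higher in 11 of 40 cases and lower in 4 (37.5% called, median 0.36), with 7 higher and 2 lower without shEZH2 library 1 and 1 lower without shEZH2 library 2. HIST1H2BK rose from 7.99 and 7.40 CPM to 15.3 and 15.7 CPM (1.01 ± 0.11), and H2AFY, the variant macroH2A1, fell from 621 and 629 CPM to 486 and 495 CPM (-0.35 ± 0.04). Of machinery that every cell uses, 9 of 77 mitochondrial ribosomal proteins were higher and 2 lower (14.3% called), with 17 higher without EV library 2, 3 without shEZH2 library 2 and 2 with spike-in scaling. Of 78 splicing proteins 6 were higher and 3 lower (11.5% called), with 11 higher without either EV library, 8 lower without EV library 1, 1 higher and 1 lower without shEZH2 library 1, 3 higher without shEZH2 library 2, and 3 lower but 0 higher when libraries were scaled on the spike-ins. Of 15 chaperonin and prefoldin subunits 1 was called (6.67%).

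**Figure D4:**
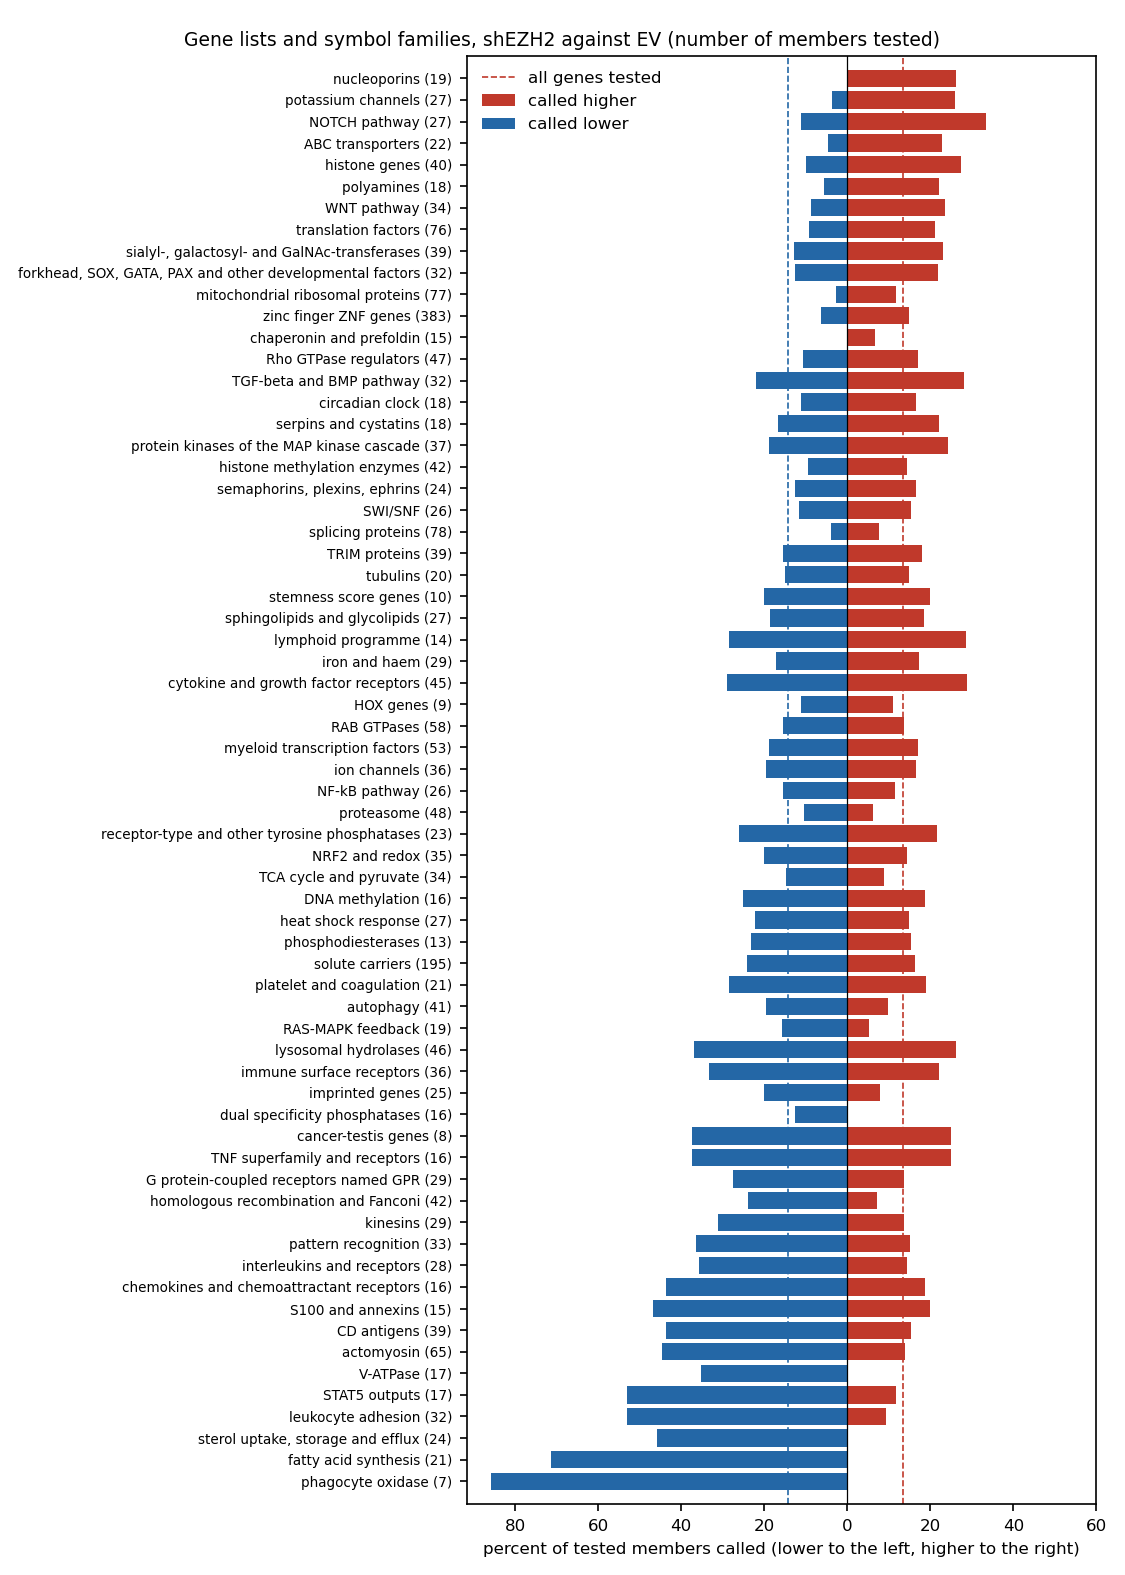
Percent of tested members called higher (red, to the right) and lower (blue, to the left) in each gene list and symbol family with at least 7 tested members besides PRC2, with the number tested in brackets. Dashed lines mark the shares over all genes tested, 13.4% higher and 14.2% lower; phagocyte oxidase and fatty acid synthesis extend farthest to the left.

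Measured as a difference in CPM, which is not corrected for transcript length, the 10 largest gains came from 5 transcripts of the mitochondrial genome and 5 genes of translation, with log2 fold changes of 0.14 to 0.46. MT-CO1, a subunit of cytochrome oxidase, went from 4924.5 and 4869.7 CPM to 6139.8 and 6210.2 CPM (0.33 ± 0.04). The 10 largest losses were larger in fold, from -0.21 to -0.96. They included PTGES3 (p23), a cochaperone of HSP90 (640 and 664 CPM, then 331 and 338 CPM, -0.96 ± 0.04), the glycolytic enzyme GPI (682 and 692 CPM, then 446 and 445 CPM, -0.62 ± 0.04), the chaperone CANX (-0.48), the galectin LGALS1 (649 and 698 CPM, then 423 and 431 CPM, -0.66 ± 0.04) and, as above, MYH9 and SCD. For each of these the hairpin libraries lay outside the range of the controls.

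The share of neighbouring genes with the same direction was somewhat above the share over all pairs. The gene order of RefSeq covered 89.4% of the genes tested and gave 10651 pairs of adjacent, non-overlapping genes. After a gene called higher, the next gene was called higher in 19.4% of cases (14.9% over all pairs), and after a gene called lower, the next was lower in 19.4% (15.5%). With changes beyond 1.5-fold the shares were 2.10% (1.29%) for higher and 3.74% (1.70%) for lower genes, which rest on 3 and 7 pairs. They include GBP2 with GBP4, FCER2 with CD209, XK with CYBB and CYBB with DYNLT3, CDKN2D with SLC44A2 and CXCR3 with NHSL2 among the lower ones, and MT1G with MT1X, P3H4 with NT5C3B and PRLR with SPEF2 among the higher ones. GBP2 and GBP4, and MT1G and MT1X, belong to clusters of similar copies. Reads from transcripts that run on into the next gene could not be separated.

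The second MV4;11 control, sgEV, was set beside EV to see how far apart the measured levels of 2 controls of the line lay. Its libraries were counted in another table that lists the same 15081 rows, and no test was run. They were scaled together with the other libraries of that table, apart from EV and shEZH2. Scaling, vector and preparation can therefore all enter the distance of sgEV from EV and cannot be told apart. Over all genes tested, the median absolute log2 ratio of sgEV to EV was 0.29, larger than the 0.17 of shEZH2 to EV. For the 374 genes changed beyond 1.5-fold these medians were 0.75 and 1.41. The sgEV level lay nearer EV than shEZH2 for 188 of the 210 falls (89.5%) and for 85 of the 164 rises (51.8%). A level past EV on the side away from shEZH2 also counted as nearer EV, so these shares do not show that the 2 controls were alike. Falls of this kind, by mean CPM in sgEV and EV, included CCL5 (129 and 15.6), FCER1G (84.7 and 16.5), AXL (32.2 and 6.49) and SLC7A11 (45.1 and 10.9). Both sgEV libraries were at or past the shEZH2 level in 32 of the rises and 8 of the falls.

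SMARCA4 (394 and 381 CPM in sgEV), KDM6A (23.9 and 27.6 CPM), SREBF1 (168 and 172 CPM), ITGB1 (245 and 246 CPM) and STAT5A (54.1 and 49.7 CPM) were close to their EV levels in sgEV. CD101 (36.7 and 36.8 CPM), FCER2 (135 and 130 CPM) and SLC38A1 (53.1 and 49.8 CPM) were several times above EV there, so that EV lay between sgEV and shEZH2. For some genes that rose against EV, sgEV lay above the shEZH2 level: YPEL2 stood at 5.40 and 6.44 CPM in sgEV and 4.53 and 4.16 CPM with shEZH2, and TCF4 at 87.2 and 83.5 CPM against 28.6 and 25.8 CPM. SLC27A2, at 9.90 and 9.89 CPM in sgEV, lay just below its 10.1 and 10.3 CPM with shEZH2. Mean levels in sgEV and with shEZH2 were 26.2 and 23.2 CPM for DTX4, 56.5 and 60.8 CPM for CD70, 10.8 and 12.2 CPM for FZD3 and 13.7 and 15.5 CPM for HIST1H2BK. All of these were among the 79 of 164 rises in which sgEV lay nearer shEZH2, beside 85 in which it lay nearer EV. VAT1L (23.2 and 24.4 CPM in sgEV), KCNA3 (1.65 and 1.27 CPM) and IRF8 (360 and 361 CPM) were below shEZH2 in both sgEV libraries and nearer EV. JARID2 (72.0 and 76.1 CPM) was also below shEZH2 but nearer to it than to EV. CAV1 (0.60 and 0.375 CPM) lay below the shEZH2 level.

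**Figure D5:**
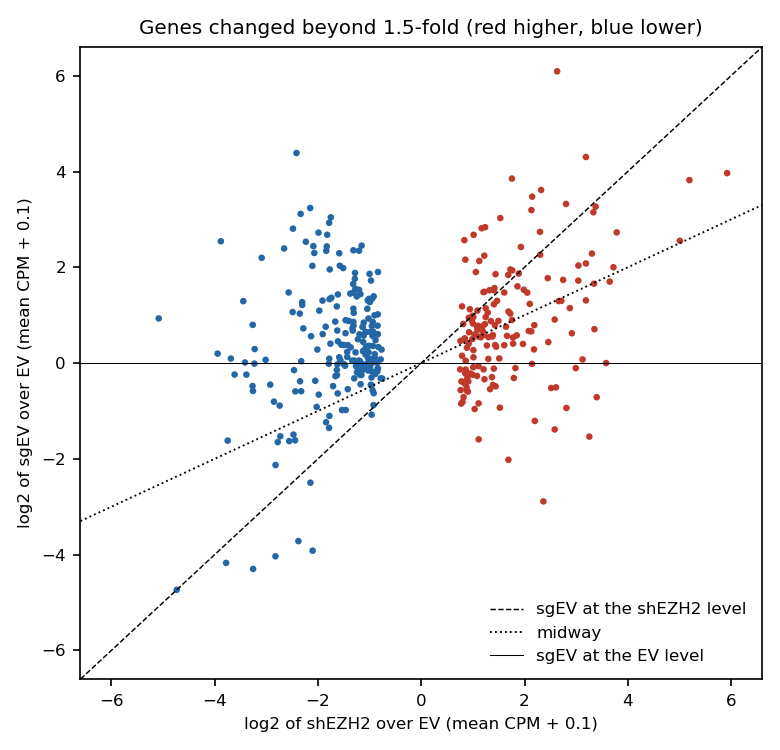
Log2 ratio of sgEV to EV (vertical axis) against that of shEZH2 to EV (horizontal axis), each from mean CPM plus 0.1, for the 374 genes changed beyond 1.5-fold. The solid line marks a gene at the EV level in sgEV, the dashed line one at the shEZH2 level and the dotted line the midpoint; 188 of the 210 falls (blue) and 85 of the 164 rises (red) lie on the EV side of the midpoint.

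In EOL-1, which has separate control libraries, EZH2 was depleted with a guide, so the line and the method of depletion cannot be told apart. There, 2099 of 13890 genes were higher (15.1%) and 1639 lower (11.8%). Of the 1722 genes called higher with shEZH2 and tested in EOL-1, 448 were higher and 221 lower in EOL-1, and of the 1791 called lower, 338 were lower and 369 higher. The effect differed between the lines for 3593 of 13543 genes (26.5%) by the interaction test of edgeR. PON2 rose in both lines, from 0.256 and 0.229 CPM to 5.01 and 3.93 CPM in EOL-1, as did CADM1 (1.28 in EOL-1), ZDHHC2 (1.29) and ARRDC3 (0.83). In the second control of the hairpin's line, where EZH2 was not depleted, CADM1 stood at 5.10 and 3.22 CPM. With shEZH2 it stood at 4.16 and 4.28 CPM. By log2 ratio, ARRDC3 (1.65 and 3.30 CPM) and PON2 (1.57 and 1.35 CPM) in that control were also nearer shEZH2 than EV. ZDHHC2 (0.600 and 0.225 CPM) was nearer EV. HSH2D, at 178 and 177 CPM in the EOL-1 controls, did not pass there (0.04, adjusted p = 0.43, edgeR), nor did VAT1L (-0.39) or SLC38A1 (-0.04).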

How the data were processed

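Total RNA was sequenced in 2 shEZH2 and 2 EV libraries of MV4;11, grouped by their titles. The members, gene lists and comparisons were chosen with earlier results of these data known. Per the file headers, each library has a raw column of estimated counts (expected counts, not always whole, deposited under the name raw) and a normalised column of log2 values, whose making by the authors is not described in the sources used here. A deposited mean signal per gene was not used. RSEM, DESeq and the build hg19 are named in the submitters' processing notes. The aligner, the annotation, strand use and versions are not stated there, so antisense and overlapping genes cannot be separated.

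Counts were rounded to whole numbers. The 56 spike-in rows were left out, and 18 rows with a date in place of a symbol were tested and not named. Genes passed filterByExpr and libraries were scaled by TMM. The quasi-likelihood test of edgeR 4.0.16 (robust, R 4.3.3) was fitted on the 4 libraries, with Benjamini-Hochberg adjustment over all genes tested and a threshold of 0.05; glmTreat tested for changes beyond 1.5-fold. SEs were obtained as the size of a log2 fold change over the root of its F statistic. Replicates differed by more than sampling noise (chi-square per degree of freedom 3.20 in EV and 1.87 with shEZH2, for genes of 20 or more counts) and all were kept. The test was run on simulated data with 200 changed genes of 13351. It called 94.0% of changes of 0.5 and 100% of those of 1 or 1.5 (log2), with 11 false calls. The changed genes were drawn from those at 5 CPM or more in EV, and all genes were given the same dispersion. These rates therefore do not carry over to scarcer genes or to the spread of these libraries.

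Of 35 gene lists, 30 symbol families and 2 lists added later, those named in the text are described by counts and medians, without a test, and the plot of lists shows those with at least 7 tested members. Named genes are EZH2 and the PRC2 list, the 20 largest rises and falls, the 10 largest CPM gains and losses, up to 6 called members of a list with the smallest p, and genes at 3 or fewer counts over a group and at least 50 over the other; of these, mainly genes whose calls held under the alternatives are given values. GBP4, CD209 and other genes in neighbour pairs, FASN, MEF2C, IFI6, IFI44, GYPC and DDX60L were named after their values were seen. The difference between lines was an interaction contrast in 1 fit over both tables. Alternatives were DESeq2 1.42.0 and its size factors, other count filters, spike-in scaling, no robust step, limma 3.58.1 on the authors' log2 values, each library left out and a replicate block. Some genes that met the rule for named genes are not reported here; they stay in all counts.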

Additional observations from a re-analysis of the deposited data

Results flagged for a closer look

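The effect of EZH2 depletion differed between MV4;11 (hairpin) and EOL-1 (guide) for 3593 genes by the interaction test of edgeR, and the following values are the log2 fold change in MV4;11 minus that in EOL-1. Apart from EZH2, the genes below were chosen for a large change in MV4;11, which itself enters the difference, and for a call in the other direction in EOL-1. Of the largest falls, EZH2 included, 14 were tested in both lines. In EOL-1, 8 of these were called higher, 2 lower and 4 not called. Of the largest rises 14 were tested in both, and 3 were called lower in EOL-1, 5 higher and 6 not called. Genes among the largest falls in MV4;11 that were called higher in EOL-1 included MYBPH, a myosin-binding protein (-7.89), the chitinase-like CHI3L1 (-6.92), ANXA1 (-5.13), the galectin-binding LGALS3BP (-4.80), CD101 (-4.06), GBP2 (-3.43) and CYBB (-2.37). CHI3L1 was near the floor in the EOL-1 controls, at 0.110 and 0.0327 CPM, and at 1.23 and 0.620 CPM with sgEZH2, so the size of its difference is uncertain. ANXA1 stood at 0.366 and 0.557 CPM in the EOL-1 controls and at 3.21 and 2.69 CPM with sgEZH2, and CD101 at 3.36 and 2.91 CPM and then 10.2 and 11.5 CPM. CYBB was abundant in EOL-1 and changed there by 0.11 only, from 108 and 110 CPM to 120 and 114 CPM. Among the largest rises, CYFIP2 (3.51), SLC27A2 (2.93) and ECI2 (2.28) were called lower in EOL-1, where CYFIP2 stood at 103 and 102 CPM in the controls and changed by -0.15. EZH2 itself fell further with the hairpin than with the guide (-1.54). A guide need not lower the transcript it cuts, and the line and the method of depletion cannot be told apart.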

How the results depend on the processing

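Genes called higher with shEZH2 numbered 833 with DESeq2, 805 with spike-in scaling and 1186 to 2200 with a library left out, and genes called lower 856 with DESeq2 and 1290 to 2072 with a library left out, against 1824 and 1934. Genes called and at least 2-fold higher (244) numbered 122 with DESeq2, 92 with a mean of at least 50 counts and 21 with limma on the log2 values of the authors, and those at least 2-fold lower (290) numbered 162, 123 and 30. A smaller number of genes was tested with the count minimum (10724). On the log2 values of the authors, the lowest of which was 6.14, limma called 1803 genes higher and 1975 lower at any size of change. Its smaller numbers at 2-fold thus came with smaller fold changes and not with fewer calls. The cause of the other differences was not tested. Changes beyond 1.5-fold numbered 144 to 189 higher and 201 to 225 lower with a library left out, and effects that differed between the lines 2705 to 3622. The replicate numbers came from the labels, which do not say that they mark a shared culture or day; deviations of same-numbered libraries correlated at 0.21 over 10024 genes, which with 2 numbers does not show pairing. With the replicate block, 2352 genes were called higher and 2358 lower. Of the 425 genes that met the naming rule, 115 lost their call under at least 1 alternative (72 with DESeq2, 64 with spike-in scaling, 56 without shEZH2 library 1 and 52 without shEZH2 library 2), and none reversed while called. Of 93 list counts and medians, 45 moved by more than 1.5 times or more than the spread of the libraries with spike-in scaling, 41 with DESeq2, 22 to 29 with a library left out and none with DESeq2's size factors in edgeR. Depth limits calls of small changes under 5 CPM.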
